A study of Mus musculus with 6 samples.

Results

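The genes described here are 9 genes of the megakaryocyte, the blood cell that sheds platelets, led by Itga2b, which encodes the CD41 antigen. They were taken by name, as the probe sets that the array annotation assigns to exactly 1 gene: 16 such probe sets read the 9 genes, among 34945 probe sets for 18193 genes on the whole array. Each gene is represented by its brightest probe set, by the mean of the 6 arrays, and the others are given beside it. RNA came from Flk1+ cells, labelled BL-CFCs and taken from day 4 embryoid bodies, which are clumps of differentiating mouse embryonic stem cells grown here in suspension without leukaemia inhibitory factor. The cells were Ldb1-/- or Ldb1+/+, with 3 biological replicates of each, measured on 6 Mouse Genome expression arrays as log2 expression levels. The labels give no further allele or agent and do not say which part of Ldb1 was deleted or how many stem cell clones were used.

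Megakaryocytes descend from early blood progenitors under GATA1 and its partners, and their surface carries receptors for fibrinogen, von Willebrand factor and thrombin. CD41 pairs with the integrin beta chain of Itgb3 into the fibrinogen receptor of platelets, but in the embryo CD41 also marks the first cells that turn from mesoderm towards blood. LDB1 is an adaptor protein that in blood cells joins LIM-domain proteins to GATA and E-box binding factors. The comparison asks how megakaryocyte genes stand in Flk1+ cells, the culture counterpart of the precursor shared by blood and endothelium, when Ldb1 is deleted.

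Genotype was taken from the labels. The Ldb1 probe set read 7.25, 6.60 and 8.25 in Ldb1-/- arrays and 7.78, 7.31 and 8.31 in Ldb1+/+ arrays, so that it did not separate the genotypes. It was lower in Ldb1-/- cells at each replicate number, by −0.53, −0.71 and −0.06 (limma with the block, adjusted p = 0.481). The sorting marker Kdr, which encodes Flk1, read from 11.33 to 12.19 in Ldb1-/- arrays and from 11.78 to 12.44 in Ldb1+/+ arrays, at the 96.6th percentile of all probe sets by its mean. Kdr was also lower in Ldb1-/- cells at each replicate number, by −0.25, −0.81 and −0.20 (limma with the block, adjusted p = 0.493). Array medians ran from 5.71 to 5.77. The lower and upper quartiles of Ldb1+/+ replicate 3 lay closer together, at 4.37 and 7.92. In the other arrays they were 4.22 to 4.28 and 8.15 to 8.27. Both arrays of replicate 3 stood apart in a control probe set for 18S ribosomal RNA, at 12.1 in Ldb1-/- and 11.3 in Ldb1+/+ cells, against 7.73 to 8.67 in the others. They also stood apart in the control for the 5′ end of Gapdh, at 12.93 in both, against 10.19 to 11.11 in the others. The control for its 3′ end ran from 14.37 to 14.49 over all arrays. Why replicate 3 differed was not tested.

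The DNA before the start site is shown for the 3 genes whose arrays did not overlap between genotypes (Itga2b, Pf4 and Tubb1) and for the 1 member whose promoter held a GATA match (Gp5). Each line gives 250 bases upstream of the RefSeq start in GRCm38.p6, 5′ to 3′ on the gene's own strand. Capitals mark the ETS core (GGAA or TTCC) and the GATA letters AGATAA or TGATAA on either strand.
Itga2b, chr11:102469884-102470133, minus strand: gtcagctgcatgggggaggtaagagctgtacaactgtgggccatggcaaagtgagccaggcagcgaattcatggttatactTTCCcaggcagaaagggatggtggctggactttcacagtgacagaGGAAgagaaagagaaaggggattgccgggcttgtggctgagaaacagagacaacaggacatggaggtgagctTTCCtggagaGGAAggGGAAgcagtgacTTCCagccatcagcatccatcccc
Pf4, chr5:90772185-90772434, plus strand: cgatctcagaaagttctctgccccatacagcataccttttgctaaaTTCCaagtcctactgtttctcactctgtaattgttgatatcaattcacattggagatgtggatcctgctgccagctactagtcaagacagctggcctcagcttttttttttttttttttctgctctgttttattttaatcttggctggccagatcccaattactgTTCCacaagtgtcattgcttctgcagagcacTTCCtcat
Tubb1, chr2:174450345-174450594, plus strand: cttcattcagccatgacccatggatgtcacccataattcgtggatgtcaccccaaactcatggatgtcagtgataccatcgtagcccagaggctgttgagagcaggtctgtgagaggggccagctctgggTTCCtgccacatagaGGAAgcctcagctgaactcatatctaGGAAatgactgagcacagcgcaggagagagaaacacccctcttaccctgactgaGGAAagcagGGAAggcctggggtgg
Gp5, chr16:30310782-30311031, minus strand: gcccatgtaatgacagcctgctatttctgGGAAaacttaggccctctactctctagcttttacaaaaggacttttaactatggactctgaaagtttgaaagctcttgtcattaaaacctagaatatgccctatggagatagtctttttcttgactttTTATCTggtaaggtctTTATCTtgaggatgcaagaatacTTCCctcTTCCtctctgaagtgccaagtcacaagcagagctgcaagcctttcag
The ETS core occurred 6 times before Itga2b, 5 times before Tubb1 and 3 times before both Pf4 and Gp5, and 93.4% of 32851 promoter windows of this length hold it. The GATA letters occurred in the reverse direction at 93 and 77 bases before the Gp5 start and before none of the other 6 members with a window, while 16.6% of all windows hold them. E-boxes (CANNTG, which reads the same on both strands) occurred 2 times before Itga2b and Pf4 and 1 time before Tubb1, and 66.2% of windows hold one. No E-box shared bases with a GATA or ETS match in these windows. These are letter matches in 1 short window, not sites shown to be bound, and 7 of the 9 members had a window in the table.

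CD41 transcript was lower in Ldb1-/- cells in every replicate. Itga2b read 6.65, 7.17 and 7.19 in Ldb1-/- arrays and 7.80, 7.93 and 7.96 in Ldb1+/+ arrays. The genotypes did not overlap, and the lowest array was Ldb1-/- replicate 1. The mean was 7.00 ± 0.31 in Ldb1-/- and 7.90 ± 0.09 in Ldb1+/+ cells (SD, n = 3 each), which is 1.86-fold lower, a difference of −0.90 on the log2 scale (SE 0.18, 95% interval −1.32 to −0.47). By replicate number it was −1.15, −0.76 and −0.78. The difference did not pass the test over all genes (limma, adjusted p = 0.410; unadjusted p = 0.00169), nor with the replicate number as a block (adjusted p = 0.0849). With the block and both arrays of 1 replicate number left out (4 arrays each), it did not pass without number 1 (limma, adjusted p = 0.383), where 0.275% of all genes were called. It passed without number 2 (adjusted p = 0.0354) and without number 3 (adjusted p = 0.00193), where 1.47% and 4.48% of all genes were called. In bulk RNA of this kind, fewer CD41+ cells and less transcript per cell cannot be told apart.

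**Figure D1:**
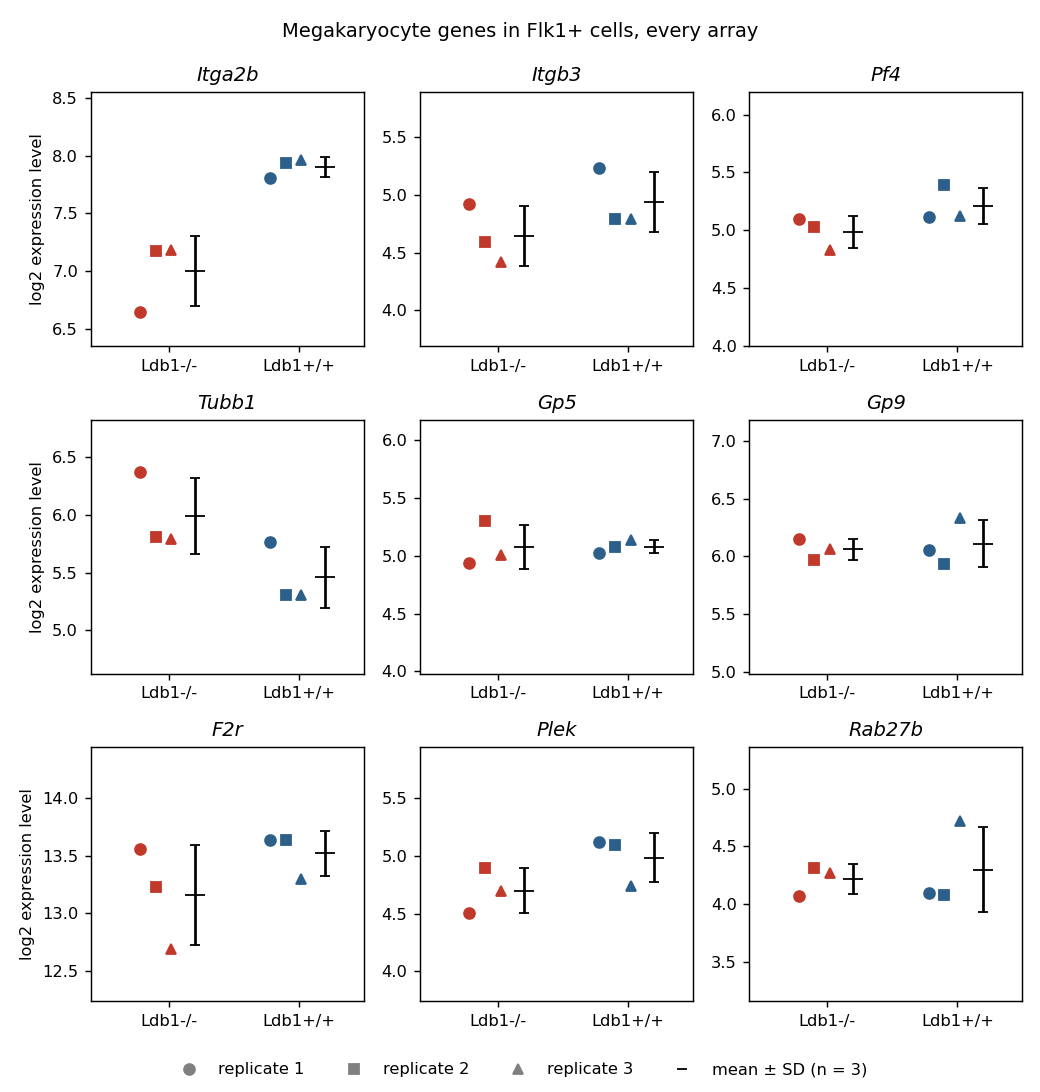
Log2 expression level of the 9 genes in every array, Ldb1-/- left and Ldb1+/+ right, with the replicate number as symbol and mean ± SD (n = 3) beside the points; each panel spans the same 2.2 log2 units. The Ldb1-/- arrays lie below all Ldb1+/+ arrays for Itga2b (at most 7.19 against at least 7.80) and Pf4, and above them for Tubb1.

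Itgb3, whose product is the beta chain that pairs with CD41 on platelets and with the alpha chain of Itgav on other cells, read at the 35.6th percentile of all probe sets. The probe set used gave 4.92, 4.59 and 4.42 in Ldb1-/- arrays and 5.24, 4.79 and 4.79 in Ldb1+/+ arrays, a difference of −0.29 (95% interval −0.76 to 0.17; limma, adjusted p = 1.00). It was lower in Ldb1-/- cells at each replicate number, by −0.31, −0.20 and −0.37, but the genotypes overlapped. The difference was −0.15 without Ldb1+/+ replicate 1 and −0.18 without Ldb1-/- replicate 3. The second Itgb3 probe set gave 4.50 ± 0.23 in Ldb1-/- and 4.54 ± 0.26 in Ldb1+/+ cells, a difference of −0.04, with replicate 1 higher by 0.41 and replicate 3 lower by −0.53. The probe sets of Itgb3 thus did not show the same pattern. Itgav, of chromosome 2, stood at 10.76, 10.05 and 9.51 in Ldb1-/- and 10.48, 10.06 and 9.04 in Ldb1+/+ arrays, a difference of 0.25 with overlapping genotypes (limma, adjusted p = 1.00).

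Itga2b, Itgb3 and Plek all lie on chromosome 11, whose genes as a whole were lower in Ldb1-/- cells. Over its 1443 genes the median difference was −0.17 and 80.4% were lower, against a median of −0.01 and 53.7% lower over all 18193 genes. At replicate numbers 1, 2 and 3 the chromosome's median was −0.12, −0.20 and −0.18. Itga2b was far below that median: only 18 genes of the chromosome, or 1.25%, had a difference as low, and its distance from the median was −0.73. Itgb3 and Plek differed from the chromosome's median by −0.13 and −0.12, with 26.5% and 27.8% of its genes as low. The part of the chromosome-wide shift in the values of these 3 genes was not tested.

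**Figure D2:**
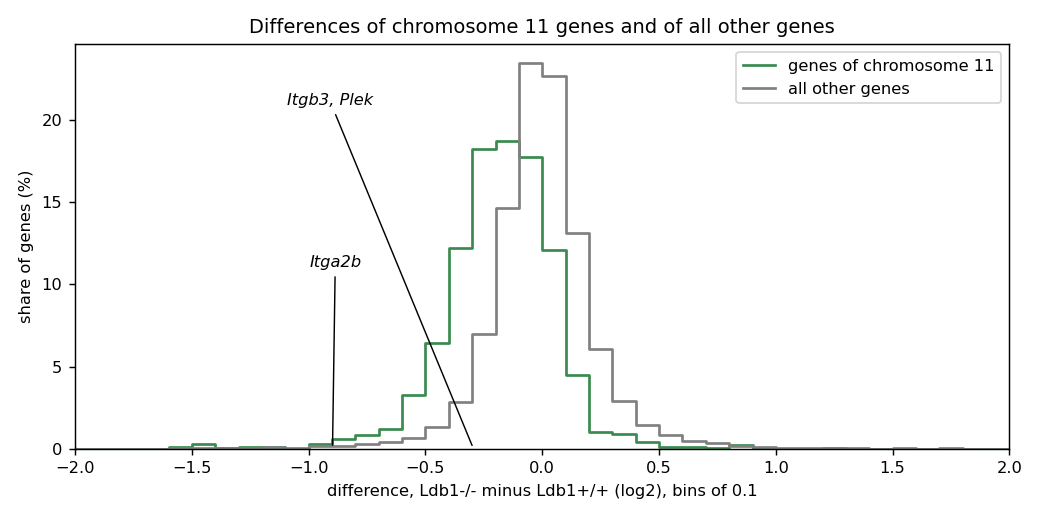
Share of genes (%) by difference, Ldb1-/- minus Ldb1+/+, in bins of 0.1 log2 units, for chromosome 11 and for all other genes. The chromosome 11 curve is shifted to the left; Itgb3 (−0.29) and Plek (−0.29) lie within its bulk and Itga2b (−0.90) in its lower tail.

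The leucine-rich glycoproteins Gp9 and Gp5, which on platelets belong to the von Willebrand factor receptor, did not differ beyond the spread between arrays. Gp9 read 6.15, 5.97 and 6.07 in Ldb1-/- arrays and 6.06, 5.94 and 6.33 in Ldb1+/+ arrays. The groups overlapped fully, with a difference of −0.05 (95% interval −0.40 to 0.30; limma, adjusted p = 1.00). Gp5 read 4.94, 5.30 and 5.01 in Ldb1-/- arrays and 5.03, 5.07 and 5.14 in Ldb1+/+ arrays. Both genotypes averaged 5.08, and the interval of the difference ran from −0.34 to 0.34. Gp1bb, a chain of the same receptor, differed by −0.16 (6.04, 5.89 and 5.77 in Ldb1-/-, 5.95, 5.97 and 6.27 in Ldb1+/+ arrays). Gp1bb was chosen for its role after its values were seen.

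F2r, which encodes the thrombin receptor PAR1, had the highest readings of the 9 genes' probe sets, in the top 1% of all probe sets. PAR1 is a platelet receptor in humans, while mouse platelets use PAR3 and PAR4, and PAR1 is also found on endothelial and mesenchymal cells. The probe set used gave 13.55, 13.23 and 12.69 in Ldb1-/- arrays and 13.63, 13.63 and 13.30 in Ldb1+/+ arrays. The Ldb1-/- array was lower at each replicate number, by −0.08, −0.41 and −0.60, though the genotypes overlapped. The mean difference was −0.36 (95% interval −0.93 to 0.21; limma, adjusted p = 1.00, or 0.537 with the block), and −0.13 without Ldb1-/- replicate 3. In the second probe set the values were 11.57, 11.39 and 10.77 in Ldb1-/- and 12.002, 11.86 and 11.61 in Ldb1+/+ arrays. There the genotypes were separated, by a narrow margin, with a difference of −0.58 (95% interval −1.14 to −0.01), which did not pass over all 45101 probe sets (adjusted p = 1.00, or 0.387 with the block). Both probe sets carry the suffix _s_at, which marks probes that can match more than 1 transcript. The genes of the mouse platelet receptors PAR3 and PAR4, F2rl2 and F2rl3, differed by −0.08 and −0.17 and did not pass (limma, adjusted p = 1.00 for both). With 1 array left out the F2rl3 difference ran from −0.32 to −0.06, and that of F2rl2 changed sign. F2rl2 and F2rl3 were chosen for their role after their values were seen.

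Pf4, a chemokine stored in platelet alpha granules, was slightly lower. It read 5.10, 5.03 and 4.83 in Ldb1-/- arrays and 5.11, 5.39 and 5.12 in Ldb1+/+ arrays. The genotypes did not overlap, but Ldb1-/- replicate 1 and Ldb1+/+ replicate 1 were 0.02 apart. The difference was −0.23 (95% interval −0.57 to 0.12) and did not pass (limma, adjusted p = 1.00, or 0.761 with the block). It was −0.13 without Ldb1+/+ replicate 2 and −0.15 without Ldb1-/- replicate 3. All 6 values lay below the array medians.

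Tubb1, the beta tubulin of the platelet's marginal band, was the member that stood higher in Ldb1-/- cells. It read 6.37, 5.81 and 5.79 in Ldb1-/- arrays and 5.76, 5.31 and 5.31 in Ldb1+/+ arrays. The genotypes were just separated, and in each the array of replicate 1 was the highest. By replicate number the difference was 0.61, 0.51 and 0.49, with a mean of 0.53 (SE 0.22, 95% interval 0.02 to 1.05), or 1.45-fold. It did not pass without the block (limma, adjusted p = 1.00; unadjusted p = 0.0450) or with it (adjusted p = 0.210). With the block and 4 arrays it did not pass without number 1 or number 2 (limma, adjusted p = 0.938 and 0.475) and passed without number 3 (adjusted p = 0.0297), the setting in which 4.48% of all genes were called. Among the other 7 beta tubulin genes measured, differences ran from −0.39 to 0.22 and 0 passed (limma, with or without the block; 1 had an unadjusted p under 0.05 in each). Tubb1 was read by 1 probe set, close to the median of all probe sets.

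Plek encodes pleckstrin, a substrate of protein kinase C in platelets and leukocytes, and Rab27b a small GTPase of platelet dense granules. The Plek probe set used gave 4.50, 4.89 and 4.69 in Ldb1-/- arrays and 5.12, 5.10 and 4.74 in Ldb1+/+ arrays. These overlapped, with a difference of −0.29 (95% interval −0.69 to 0.11; limma, adjusted p = 1.00) that came to −0.61, −0.20 and −0.05 by replicate number. The other Plek probe sets differed by 0.06 and 0.13, in the opposite direction. Rab27b read 4.07, 4.32 and 4.27 in Ldb1-/- and 4.10, 4.08 and 4.72 in Ldb1+/+ arrays in the probe set used, a difference of −0.08 (95% interval −0.57 to 0.41). The highest array was Ldb1+/+ replicate 3. Its other probe sets averaged between 3.34 and 3.39 in Ldb1-/- and between 3.35 and 3.49 in Ldb1+/+ cells, among the lowest 5% of all probe sets, and differed by −0.02 to −0.12.

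**Figure D3:**
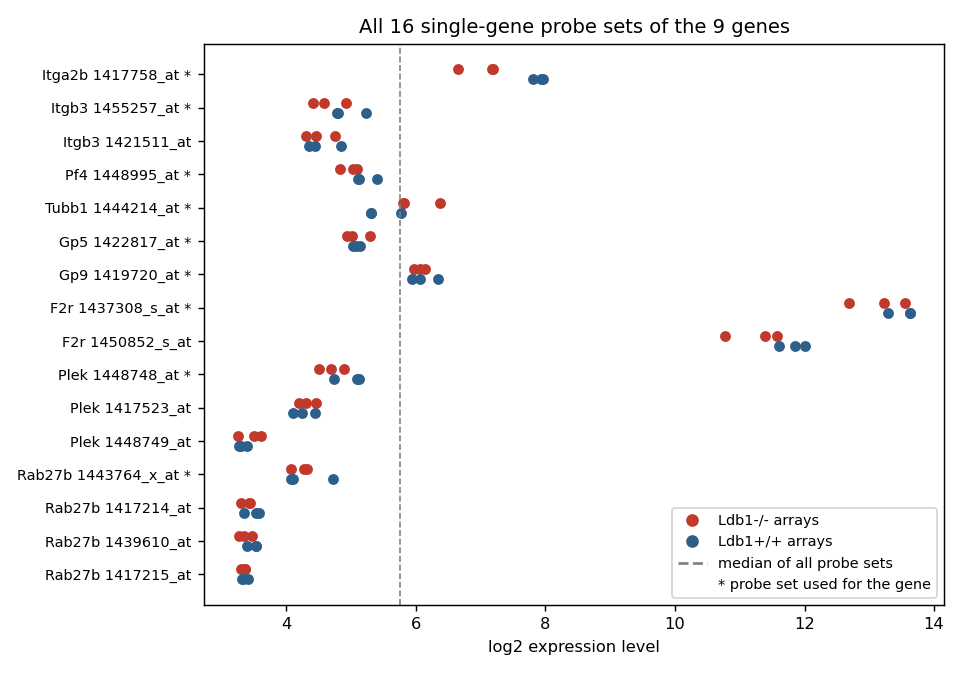
Log2 expression level of each of the 16 probe sets in the 3 Ldb1-/- and the 3 Ldb1+/+ arrays, with the median of all probe sets (5.75) as a dashed line and the probe set used per gene starred. Itga2b, Gp9 and F2r lie above the line on average; Tubb1 crosses it and the other genes lie below.

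The members differed widely in how far their readings rose above the bulk of the array, and probe sets differ in sensitivity, so that these readings do not rank transcript amounts. By the mean over 6 arrays, Itga2b, Gp9 and F2r were above the median of all probe sets, at the 68.9th, 54.3rd and 99.1st percentile. The other 6 lay between the 24.5th percentile, for Rab27b, and the 49.7th, for Tubb1. The values carry no detection calls, so whether these 6 genes were expressed was not tested.

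Across the 9 members, 0 passed the test without the block, where 0.022% of all genes did, and 0 passed with it, where 0.341% did (limma, adjusted p at or under 0.05). At an unadjusted p under 0.05 there were 2 without the block, Itga2b and Tubb1, where 3.85% of all genes had one (2.25% lower and 1.61% higher), and 3 with it, F2r besides, where 8.94% had one (5.06% lower and 3.88% higher). The genotypes did not overlap for 3 members, Itga2b and Pf4 lower and Tubb1 higher, against 7.92% of all genes (4.47% lower and 3.45% higher). These shares were larger on chromosome 11, which holds Itga2b, Itgb3 and Plek. Of its 1443 genes 190 were lower and 14 higher without overlap. An unadjusted p under 0.05 was found there for 126 genes without and 302 with the block (limma). Itga2b, Itgb3, Pf4, F2r and Plek, 5 of 9, were lower at all 3 replicate numbers, as were 14.9% of all genes, and Tubb1 was higher at all 3, as were 13.5%. Of the 9 genes, 7 were lower in Ldb1-/- cells, with a median difference of −0.23 (all genes −0.01). Without the 3 members on chromosome 11 the median difference was −0.07. By replicate number the median of all 9 members was −0.08, −0.20 and −0.29. Over all genes it was −0.00099, 0.0036 and −0.017, but over genes at or above the median level −0.046, −0.028 and 0.12. At replicate 3 the difference thus depended on the level of the genes. The part of this in the members' values, most of them dim, was not tested.

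**Figure D4:**
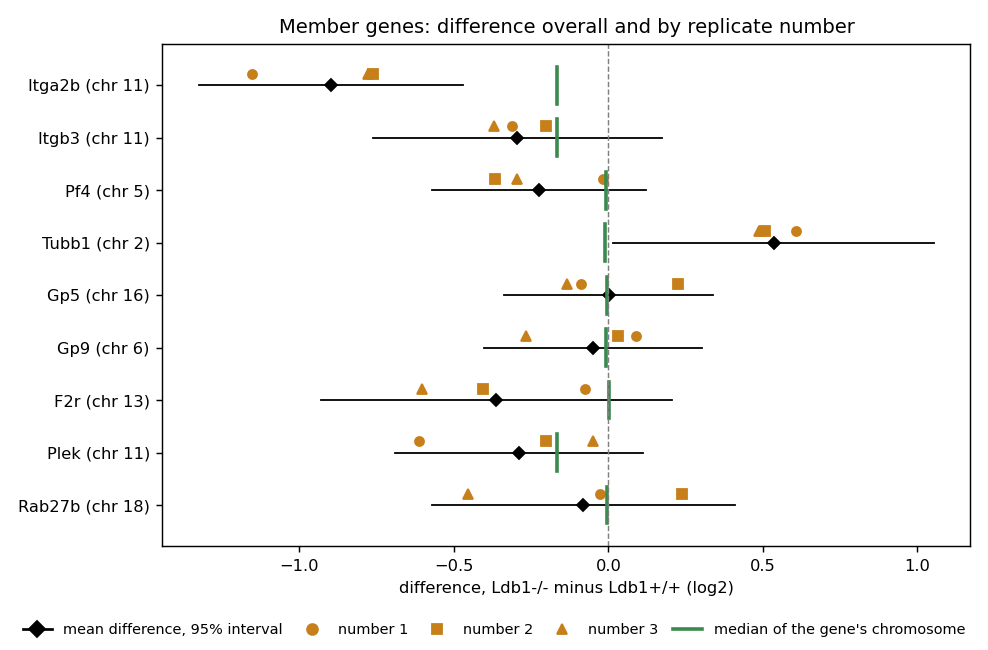
Difference, Ldb1-/- minus Ldb1+/+, in log2 units for each gene: mean with its 95% interval, the value at each replicate number, and the median of all genes on the same chromosome. Itga2b lies below 0 and Tubb1 above 0 at all 3 replicate numbers, and the chromosome medians are near 0 except on chromosome 11 (−0.17).

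Other megakaryocyte genes and relatives of the members were read from lists by role, of which 60 of 64 genes had a single-gene probe set. Without the block 0 of these 60 passed (0.022% of all genes) and 7 had an unadjusted p under 0.05 (3.85% of all genes; limma). With the block 4 passed, 3 lower and 1 higher (0.341% of all genes), and 13 had an unadjusted p under 0.05 (8.94% of all genes). The 3 that passed as lower are transcription factor genes of the erythroid and megakaryocytic lineages. Gata1 fell by 1.31 on the log2 scale (6.27, 6.37 and 6.17 in Ldb1-/-, 7.50, 7.68 and 7.55 in Ldb1+/+ arrays; limma with the block, adjusted p = 0.0194, without it 0.0542). Gfi1b fell by 1.58 (5.78, 6.22 and 5.71 in Ldb1-/-, 7.56, 7.49 and 7.42 in Ldb1+/+ arrays; 0.0194 with the block, 0.0879 without). Nfe2 fell by 1.15 (4.77, 5.22 and 4.41 in Ldb1-/-, 6.16, 6.29 and 5.39 in Ldb1+/+ arrays; 0.0334 with the block, 0.756 without). Without both arrays of replicate 1 the blocked fit no longer called Nfe2 (limma, adjusted p = 0.138). In each of these the genotypes did not overlap. Over the 8 transcription factors of the list the median difference was −0.96. Of these 8, 3 without and 6 with the block had an unadjusted p under 0.05 (limma, against 3.85% and 8.94% of all genes). The other 5 did not pass. Among them Fli1, Runx1 and Zfpm1, named after their values were seen, differed by −1.04, −0.88 and −0.47. Each was lower at all 3 replicate numbers, with overlapping genotypes. Tal1 and Gata2, which had the highest readings of the list, overlapped between genotypes. Tal1 read 10.87, 10.55 and 9.33 in Ldb1-/- and 10.19, 10.69 and 9.83 in Ldb1+/+ arrays, a difference of 0.01. Gata2 read 10.25, 9.63 and 8.51 in Ldb1-/- and 9.94, 9.97 and 9.07 in Ldb1+/+ arrays, a difference of −0.20. Both were higher in Ldb1-/- cells at replicate 1 and lower at the other replicate numbers.

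The 1 listed gene that passed as higher, in the fit with the block, was Cd9, a tetraspanin of platelets that many other cells carry too. It read 9.74, 9.96 and 10.29 in Ldb1-/- and 8.32, 8.70 and 8.83 in Ldb1+/+ arrays, a difference of 1.38 (limma with the block, adjusted p = 0.0194, without it 0.192). Among the 11 measured platelet surface proteins the median difference was −0.08, and the 10 others ran from −0.17 to 0.07. For the 11 granule proteins the median was 0.04, and none of the 11 passed (limma, with or without the block; 1 had an unadjusted p under 0.05 without it). For the 14 genes of signalling and secretion it was −0.04, again with none passing (1 without and 3 with the block had an unadjusted p under 0.05). Among them Myh9, the nonmuscle myosin heavy chain of platelets, read 11.80, 10.29 and 10.46 in Ldb1-/- and 11.14, 9.88 and 8.81 in Ldb1+/+ arrays and overlapped between genotypes. Its difference of 0.90 ran from 0.34 to 1.503 with 1 array left out. Among 7 integrin chains the median was −0.06 and 0 passed (limma; 0 without and 2 with the block had an unadjusted p under 0.05). Itgb5 differed by −0.35, and by −0.16 without Ldb1+/+ replicate 1. The widest differences of the list, picked out after their values were seen, were 0.74 for Itgb1 and −0.70 for Itga8. Itga8 was higher at replicate 3. Itgb1 was higher at all 3 replicate numbers, with overlapping genotypes (limma with the block, adjusted p = 0.116). The Itgb1 difference became 0.35 with its probe sets averaged and 0.55 with the probe set of largest variance.

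**Figure D5:**
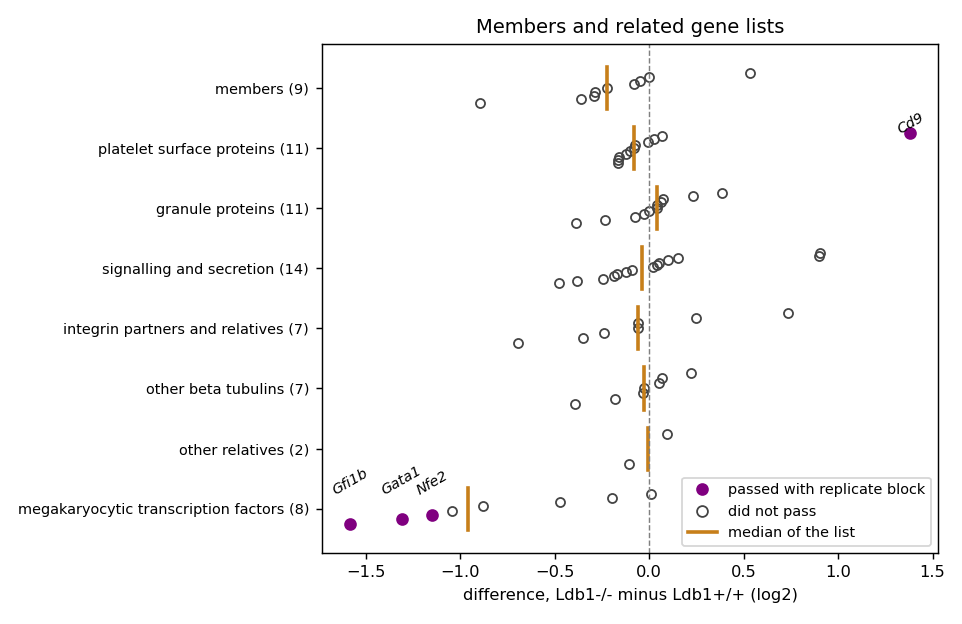
Difference, Ldb1-/- minus Ldb1+/+, in log2 units for the 9 members and for each list, with 1 point per gene, the list's median as a bar and the number of genes in brackets; filled points passed with the replicate block. The transcription factor list has the lowest median (−0.96), with its points spread from −1.58 to 0.01, while the medians of the platelet protein lists lie between −0.08 and 0.04.

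Markers of other cell types were read beside these genes. Of 6 measured primitive erythroid markers all 6 were lower in Ldb1-/- cells, where 53.7% of all genes were. In limma 1 of the 6 passed without the block (0.022% of all genes) and 2 with it (0.341% of all genes). In 3 of the 6 all Ldb1-/- arrays lay below all Ldb1+/+ arrays, as they did for 4.47% of all genes. The log2 of their summed level was 7.34 to 7.52 in Ldb1-/- and 9.27 to 9.58 in Ldb1+/+ arrays, without overlap, as for Itga2b. Hbb-bh1, an embryonic globin gene, read 4.60 to 5.37 in Ldb1-/- arrays and 8.63 to 9.08 in Ldb1+/+ arrays (limma, adjusted p = 0.00494) and differed by −3.89, against −1.71 to −0.24 for the other 5. Without Ldb1-/- replicate 3 or Ldb1+/+ replicate 2 Hbb-bh1 missed the threshold (adjusted p = 0.0716 and 0.0598), with differences of −3.85 and −3.91. Of 10 leukocyte markers 7 were lower and 0 passed with or without the block (limma; 1 had an unadjusted p under 0.05 with it, 0 without). That 1 was Lcp1, named after its values were seen, which was higher in Ldb1-/- cells. Its difference was 0.98, with overlapping genotypes (limma with the block, adjusted p = 0.0910). The summed level of the 10 markers was 9.03 to 9.35 in Ldb1-/- and 9.07 to 9.33 in Ldb1+/+ arrays. Of 8 endothelial markers 4 were lower and 0 passed, with 9.61 to 10.71 in Ldb1-/- and 9.98 to 10.35 in Ldb1+/+ arrays. The 6 mast cell markers gave 7.74 to 9.02 in Ldb1-/- and 7.99 to 8.55 in Ldb1+/+ arrays. This sum depended heavily on Kit, which read 6.76 to 8.67 in Ldb1-/- and 7.05 to 8.07 in Ldb1+/+ arrays. Cpa3, Fcer1a, Mcpt4 and Ms4a2 lay between percentiles 12.1 and 20.9 of all probe sets, and Tpsb2 at 46.5. The 6 markers of mesenchyme and smooth muscle gave 11.31 to 11.997 in Ldb1-/- and 11.10 to 12.05 in Ldb1+/+ arrays. Of these last 6 markers 3 were lower and 3 higher in Ldb1-/- cells. None of the 6 passed, but 2 without and 3 with the block had an unadjusted p under 0.05 (limma). Acta2 and Tagln, smooth muscle genes picked out after their values were seen, were higher in every Ldb1-/- array than in any Ldb1+/+ array. Acta2 read 9.22, 8.94 and 9.39 in Ldb1-/- and 8.56, 8.01 and 8.70 in Ldb1+/+ arrays (limma with the block, adjusted p = 0.0981). Tagln read 9.40, 8.54 and 8.96 in Ldb1-/- and 8.44, 8.04 and 8.13 in Ldb1+/+ arrays (adjusted p = 0.123). The Acta2 probe set used carries the suffix _s_at. The Acta2 difference of 0.76 became 0.30 with its probe sets averaged and 0.13 without _s, _x and _a probe sets. The 4 pluripotency markers were all higher in Ldb1-/- cells on average and 0 passed (limma; 1 without and 2 with the block had an unadjusted p under 0.05), with 9.85 to 11.36 in Ldb1-/- and 9.95 to 10.10 in Ldb1+/+ arrays. RMA values have no zero, so no marker could read 0. The part of the cell mix in the Itga2b difference was not tested.

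The 5 genes with the pattern most like that of Itga2b were taken from 1700 genes above the median level with an SD of at least 0.5 over the 6 arrays. They were Mid1, Slc39a8, Mcts2, Spin2c and Sgce, with Pearson correlations to Itga2b of 0.989, 0.985, 0.983, 0.972 and 0.970 over the 6 arrays. All 5 were lower in Ldb1-/- cells, by −1.05 to −1.26, and none lies on chromosome 11. Since the genotypes are separated in all of them, these correlations include that separation, and they are given as a description.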

How the data were processed

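Flk1+ cells of Ldb1-/- and Ldb1+/+ embryoid bodies were measured on 6 arrays. The deposited log2 expression levels per probe set were made by the authors with RMA and affy, per the submitters' processing notes; versions and settings are not given in the sources used here. Gene names came from the platform annotation, and chromosomes and promoters from RefSeq (GRCm38.p6). Of 45101 probe sets, 34945 had exactly 1 gene. The array file names no genome build.

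The genotype difference was fitted by limma 3.58.1 under R 4.3.3 (lmFit and eBayes), with p adjusted by Benjamini-Hochberg over 18193 genes and a threshold of 0.05. The number of arrays limits the precision. Same-numbered arrays deviated together from their genotype's mean (correlations across probe sets of 0.699, 0.354 and 0.448, each above 0.1), so the fit with the number as a block is given where it changes a call. What a shared number means is not stated in the labels. Each p-value sets a difference against the spread between these samples, which eBayes estimates with help from all genes. The fits were tested on simulated data. Figures used matplotlib 3.10.9 in Python 3.11.15.

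The members and lists were chosen with earlier results of these data known. Named beside the members were Ldb1, Kdr, from each list the genes that passed in either fit and the 2 with the highest mean, and the 5 genes most like Itga2b. Those that no statement needed were left out. Gp1bb, F2rl2 and F2rl3 were added by role, and Fli1, Runx1, Zfpm1, Itgb1, Itga8, Lcp1, Acta2 and Tagln by their values. Alternatives were the block, left-out arrays or pairs, filters, scaling, variance models, array weights, other choices of probe set and subtraction of chromosome medians. Leaving out chromosome 11 and joining the block to a choice of probe set or filter were chosen after seeing the data.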

Additional observations from a re-analysis of the deposited data

How the results depend on the processing

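The number of members passing the test stayed at 0 in the settings tried (0 of 3 tested without dim probe sets, 0 of 6 without chromosome 11, otherwise 0 of 9), except with the replicate block and 4 arrays, where 1 passed without number 2 (Itga2b) and 2 without number 3 (Itga2b and Tubb1). The count over all genes was 4; it was 1 to 6 with 1 array left out, 68 with array weights, 62 with the block, and 50, 267 and 815 with the block and without number 1, 2 or 3. Joined to the block, leaving out chromosome 11 gave 54, dim probe sets 55, the probe set of largest variance 55 and averaged probe sets 48. Of the other listed genes 0 passed in the first fit, 4 with the block, 3 with array weights and 1 with averaged probe sets. With the block the count was 3, 7 and 11 without number 1, 2 or 3, 4 without chromosome 11, 3 without dim probe sets, 3 with the largest variance and 4 with averaging. The members' median was −0.36 without dim probe sets (3 members left), −0.078 with averaged probe sets and −0.065 without chromosome 11, with or without the block, and −0.27 to −0.13 with 1 array left out. Itga2b kept its direction in 22 of 22 alternatives (−0.99 to −0.72), as did Tubb1 (0.34 to 0.69), Pf4 (−0.35 to −0.13) and F2r in 24 of 24 (−0.58 to −0.13). Small differences turned. Gp5 was −0.11 to 0.072 with 1 array left out, −0.00037 with array medians subtracted and −0.11 with the block without number 2. Gp9 was −0.14 to 0.062 with 1 array left out, 0.052 with array weights and 0.060 with the block without number 3. Rab27b was −0.19 to 0.13 with 1 array left out, 0.16 with array weights and 0.11 with the block without number 3. F2rl2 was −0.22 to 0.16 with 1 array left out, 0.23 with array weights, 0.014 with averaged probe sets with or without the block, and 0.11 with the block without number 3. Gp1bb was 0.0061 in that last setting. Itgav was −0.16 to 0.56 with 1 array left out and −0.013 with array weights. Tal1 was −0.30 to 0.47 with 1 array left out, −0.036 with quantile normalisation, −0.26 with array weights and −0.33 with the block without number 1, and Gata2 −0.59 to 0.28 with 1 array left out. Why these values moved was not tested. Below the median of all probe sets, signal over background limits what the arrays can show.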
